A study of Mus musculus with 4 samples.

Results

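The subunits of oxidative phosphorylation were examined as 1 set in RNA from mouse optic nerves. Members were the protein-coding genes of GENCODE M21 with symbols starting Ndufa, Ndufb, Ndufc, Ndufs, Ndufv, Uqcr, Cox4i, Cox5, Cox6, Cox7, Cox8 or Atp5, with the Ndufaf assembly factors left out, and the 13 protein-coding genes of the mitochondrial genome. This gave 95 of the 55401 gene identifiers in the tables. Of these, 82 were nuclear, namely 38 of complex I, 8 of complex III, 18 of complex IV and 18 of complex V. The symbols used contain no gene of complex II. The prefixes place Ndufa4 with complex I, Cox7a2l, a factor of respiratory supercomplexes, with complex IV, and Atp5s, a factor associated with ATP synthase, with complex V.

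Polyadenylated RNA was sequenced in 4 optic nerve samples, of which 2 carry the label Dor WT and 2 the label Dor cKO (conditional knockout of Dor), with no treatment named for either. The sources used here do not give age, sex or strain, the number of animals in a library or the Cre driver. The tables of Dor WT carry an age-like tag in their names that those of Dor cKO lack. If the groups differed in age, that could not be told apart from genotype in these libraries. Whether replicates came from separate animals was not stated, so p-values measure the spread between these samples, which may be technical. Dor is a synonym of Trp53inp2, a nuclear and autophagy protein. Trp53inp2 stood at 138 and 133 counts scaled to a common library size (CPM) in Dor WT against 105 and 107 in Dor cKO, a log2 change of -0.36 (SE 0.04). Counts over a whole gene do not check a deletion limited to an exon or to a cell type.

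Oxidative phosphorylation passes electrons from NADH through complex I, ubiquinone, complex III and cytochrome c to complex IV, which reduces oxygen, and complex V uses the resulting proton gradient to make ATP. Complexes I, III, IV and V are built from subunits of both genomes, so nuclear and mitochondrial transcripts contribute to the same enzymes. In the optic nerve these enzymes work in the axons of retinal ganglion cells and in the glia around them. The mitochondrial genome is transcribed as long precursors that are cut into its mRNAs, so its genes do not vary independently.

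The sequences below bear on how the mitochondrial genes could be counted. Mouse chromosome 1 holds annotated copies of 7 mitochondrial genes on its minus strand, within 24611535 to 24616197 of GRCm38. The copies of mt-Co2 (Gm28661), mt-Atp6 (Gm10925), mt-Co3 (Gm28437), mt-Nd4l (Gm10222) and mt-Nd4 (Gm28439) had no difference from the mitochondrial gene over the shared length. As annotated, the mt-Co2 copy covers 681 of the 684 bases of the gene, and the mt-Nd4 copy covers 876 of 1378 bases. In the last stretch of mt-Co2 (chrM:7597-7696) and of its copy (chr1:24614885-24614981), capitals mark bases past the end of the annotated copy. The bases of chromosome 1 beyond that end were not compared.
mt-Co2: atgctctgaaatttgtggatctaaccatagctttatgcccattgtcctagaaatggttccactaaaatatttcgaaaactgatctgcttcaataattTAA
Gm28661: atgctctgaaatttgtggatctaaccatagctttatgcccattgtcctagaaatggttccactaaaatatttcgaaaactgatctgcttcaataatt
The mt-Nd3 copy Gm28438 differed at 1 base, T3C, counted from the start of the mitochondrial gene, which is in capitals in the first 100 bases of each (chrM:9459-9558 and chr1:24613020-24613119).
mt-Nd3: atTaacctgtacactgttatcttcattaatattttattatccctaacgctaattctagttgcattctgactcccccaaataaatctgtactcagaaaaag
Gm28438: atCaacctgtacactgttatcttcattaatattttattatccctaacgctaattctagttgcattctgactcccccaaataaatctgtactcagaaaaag
The copy of mt-Co1, Gm29216, covers 492 of its 1545 bases and differed at 6 of them, T1056A, C1057T, A1059G, A1060G, C1062A and A1066T, all near the start of the copy. In the stretch shown (chrM:6361-6460 and chr1:24616118-24616197), capitals mark these differences and the bases before the annotated copy begins.
mt-Co1: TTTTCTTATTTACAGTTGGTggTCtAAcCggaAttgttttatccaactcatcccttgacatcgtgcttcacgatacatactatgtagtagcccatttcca
Gm29216: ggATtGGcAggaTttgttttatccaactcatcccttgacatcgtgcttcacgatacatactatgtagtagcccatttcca

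Rounded counts summed to 17263820 and 21595825 in Dor WT against 21162586 and 20928316 in Dor cKO. The mean fragment length read from the tables was 259.6 and 260.0 bases in Dor WT against 245.5 and 245.3 bases in Dor cKO, so it differed with the group. Markers of oligodendrocytes, the myelin-forming glia, summed to 30385 and 30278 CPM in Dor WT against 17392 and 17296 CPM in Dor cKO, and 10 of 10 were called lower. Fibroblast and meningeal markers summed to 9792 and 9792 CPM against 12516 and 12516, with 5 of 5 called higher. Astrocyte markers summed to 12854 and 12850 against 14062 and 14074 CPM (4 of 5 higher, 1 lower), endothelial and mural markers to 727 and 752 against 928 and 930.2 CPM (3 of 5 higher), and microglia and macrophage markers to 417 and 418 against 515 and 514 CPM (3 of 5 higher, 1 lower). Oligodendrocyte precursor markers summed to 1571 and 1528 against 1124 and 1128 CPM (4 of 5 lower, with a median log2 change of only -0.11). Retinal neuron markers summed to 57.3 and 59.5 against 69.1 and 66.7 CPM (1 of 6 higher). Pituitary and hypothalamus markers, foreign to the nerve itself, summed to 469.7 and 492 against 363 and 379.8 CPM (6 of 7 tested lower, with a median log2 change of -2.3, while most of the sum was Avp, which was not called), and erythroid markers to 579.7 and 607 against 557 and 565 CPM (2 of 5 lower). No listed marker was at 0 in every library. In bulk tissue, fewer cells of a type and less RNA per cell cannot be told apart. The part of these marker levels and of the fragment length in the member results below was not tested, apart from the fits on effective length below.

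Of the 82 nuclear identifiers, 79 had enough counts to be tested with edgeR's quasi-likelihood test. Cox8c, Cox7b2 and a second identifier of Atp5o were not. In Dor cKO, 13 nuclear genes were called higher (16.5%) and 1 lower (1.27%) at an adjusted p under 0.05, against 14.3% higher and 13.4% lower among all 16751 genes tested. With an unadjusted threshold of 0.05 the same test gave 19 higher and 7 lower, beside 18.4% and 18.1% of all genes. The median log2 change of the 79 was 0.008, beside -0.004 over all tested genes, and it was -0.012 when libraries were scaled by total count. The CPM of the groups did not overlap for 49 of the 79 (62.0%), of which 35 were not called, and for 60.8% of all tested genes, so groups that do not overlap are the usual case with 2 libraries each. Most genes moved little: 74 of the 79 changed by less than 1.2-fold. The 13 higher calls lay between 0.09 and 0.52 on the log2 scale. By complex, 4 genes rose and 1 fell of 38 in complex I (median -0.003), 2 of 8 rose in complex III (median 0.054), 4 of 16 rose in complex IV (median 0.026) and 3 of 17 rose in complex V (median 0.006). Without the library Dor cKO 1 or Dor cKO 2 fewer nuclear rises were called, and fewer genes were called in all. The number of nuclear falls also moved with the library left out. The median of the nuclear members was 0.017 to 0.026 when each library was left out.

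Effective length is the number of positions in a transcript at which a fragment of the library's typical length can start. It grows when fragments are shorter, most of all for short genes. The deposited value of a gene is also weighted over its isoforms, so it carries isoform estimates as well as fragment length. The nuclear members are short, with a median length of 709 bases against 2490 for all tested genes. Their log2 ratio of deposited effective length, Dor cKO over Dor WT, had a median of 0.05 (0.01 for all tested genes) and ran from -0.18 for Ndufs4 to 0.27 for Ndufa4l2. To leave isoform estimates out, the effective length that each library gives to a gene's mean length was read from the 39004 genes with the same length in all 4 libraries. This fixed-length ratio was above 0 for all 79 nuclear members, between 0.01 and 0.17 with a median of 0.05.

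A fit with the fixed-length values as an offset, in which the chromosome 1 copies were also added to their mitochondrial genes, was made after the data had been seen and is called the fixed-length fit below. In it edgeR called 10 nuclear members higher (12.7%) and 5 lower (6.33%), beside 14.5% higher and 13.4% lower of all genes. At an unadjusted p under 0.05, 13 were higher and 10 lower, beside 18.4% and 17.9% of all genes. The 10 were among the 13 that rose as deposited, and all 13 stayed above 0, at log2 changes of 0.05 to 0.45. The 5 falls were Ndufs4, Ndufs5, Cox7a2, Atp5h and Atp5g2, of which only Ndufs5 was called as deposited, and the median of the 79 was -0.035. With the deposited effective lengths as the offset instead, fewer genes were called throughout: 0 nuclear members were higher and 1 lower, beside 6.53% and 6.03% of all genes, and 7 and 4 at an unadjusted p under 0.05, beside 13.6% and 12.8%. None of the 13 rises was called in that fit, where they lay at 0.05 to 0.40 with adjusted p of 0.0803 to 0.527. DESeq2 on the deposited counts called 7 members higher and 0 lower, beside 10.2% and 9.14% of all genes.

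**Figure D1:**
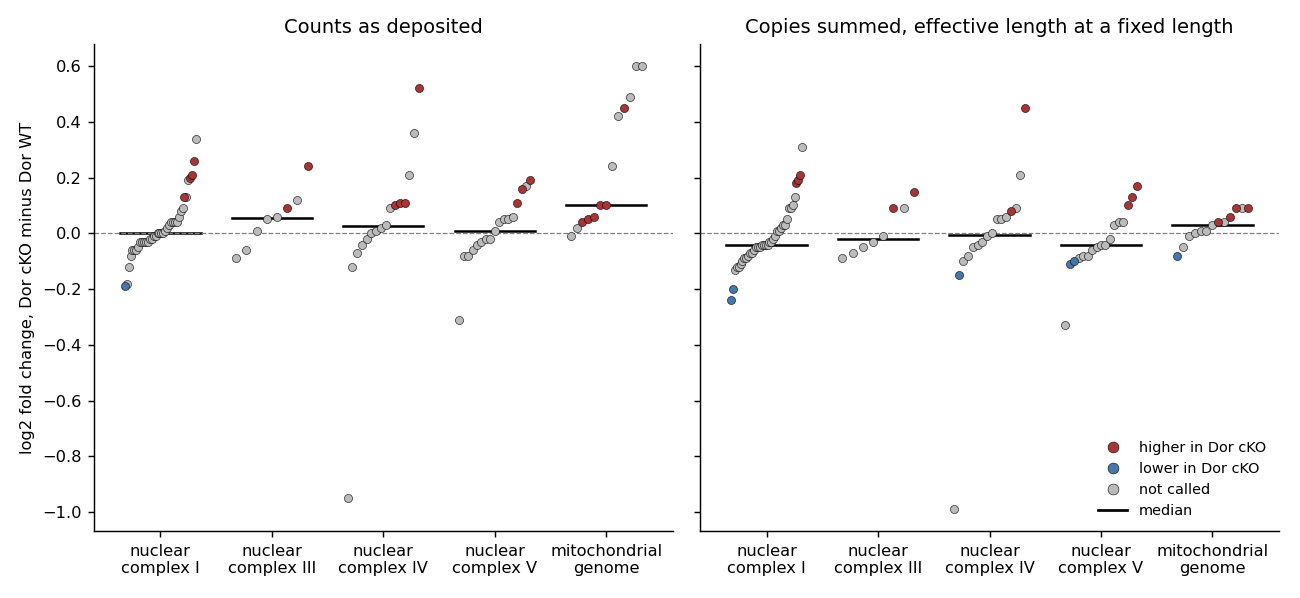
Log2 fold change, Dor cKO minus Dor WT, of each tested subunit gene (points, sorted within each group) for the nuclear genes of each complex and for the mitochondrial genome, from the counts as deposited (left) and in the fixed-length fit (right). Red and blue points are called higher and lower at an adjusted p under 0.05 and bars are medians; on the left 13 nuclear and 6 mitochondrial genes are red, and on the right 10 and 4.

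Complex I takes electrons from NADH. Its core subunits carry the flavin and the iron-sulfur clusters. Of 7 nuclear core genes 1 rose (14.3%, beside 14.3% of all genes), with a median log2 change of -0.03 over the 7. The gene was Ndufs7, whose product holds the iron-sulfur cluster next to ubiquinone. Ndufs7 stood at 37.8 and 40.2 CPM in Dor WT against 45.4 and 44.7 in Dor cKO, and both Dor cKO libraries lay above both Dor WT libraries. Its log2 change was 0.21 (SE 0.07, edgeR adjusted p = 0.0211), and the call was lost without Dor WT 1, Dor cKO 1 or Dor cKO 2. It was 0.18 (adjusted p = 0.0491) in the fixed-length fit. The flavin-binding subunit Ndufv1 stood at 103 and 101 against 107 and 109 CPM and Ndufs1, the largest core subunit, at 88.6 and 92.2 against 84.3 and 89.7 CPM. Neither was called.

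Among the 31 accessory genes of complex I, 3 rose and 1 fell (9.68% and 3.23%), beside 14.3% and 13.4% of all genes. Ndufa6 (chr15:82350140-82354322) encodes a small accessory subunit bound to the mitochondrial acyl carrier protein. It stood at 46.1 and 42.3 CPM in Dor WT against 54.0 and 51.6 in Dor cKO, with no overlap, and its log2 change was 0.26 (SE 0.06, edgeR adjusted p = 0.00267). Its call stood when any 1 library was left out, and it was called in the fixed-length fit at 0.21 (adjusted p = 0.0156). Ndufa13, an accessory subunit of the membrane arm also studied in cell death, stood at 73.6 and 73.3 against 81.1 and 87.4 CPM. The groups did not overlap, and the log2 change of 0.20 (SE 0.05, adjusted p = 0.00364) fell to 0.14 (adjusted p = 0.124) without Dor cKO 2. It was 0.19 in the fixed-length fit (adjusted p = 0.00497). Ndufb10, a subunit of the membrane arm, stood at 84.5 and 91.4 against 95.5 and 97.3 CPM. Its change of 0.13 (SE 0.05, adjusted p = 0.0422) was not called without Dor WT 1, Dor cKO 1 or Dor cKO 2, nor in the fixed-length fit (0.10, adjusted p = 0.129).

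Ndufs5 (chr4:123712710-123718202), an accessory subunit on the intermembrane space side, was the nuclear member that fell as deposited. It stood at 44.5 and 46.0 CPM in Dor WT against 39.6 and 40.0 in Dor cKO, so both Dor cKO libraries were lower. The log2 change was -0.19 (SE 0.07, edgeR adjusted p = 0.0337), and leaving out Dor WT 2, Dor cKO 1 or Dor cKO 2 ended the call. The value was -0.24 (adjusted p = 0.0057) in the fixed-length fit. Ndufs4, another accessory subunit, stood at 38.4 and 41.6 against 36.2 and 34.6 CPM and was called in the fixed-length fit (-0.20, adjusted p = 0.0424) but not as deposited (-0.18, adjusted p = 0.065). Its deposited effective length fell, and with that as the offset its change was 0.01 (adjusted p = 0.979). Ndufa8 (53.9 and 54.1 against 55.6 and 54.8 CPM) and Ndufb7 (59.5 and 59.8 against 62.0 and 57.2 CPM) were not called. Both carry the same kind of paired cysteine motif as Ndufs5.

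The most abundant nuclear complex I genes per length were Ndufa4 and Ndufa7. Ndufa4, since assigned by structural work to complex IV, stood at 478 and 489 TPM, a level per transcript length scaled to a fixed total, in Dor WT against 463 and 442 in Dor cKO, and Ndufa7 at 366 and 341 against 315 and 323 TPM. Their log2 changes from counts were -0.03 (adjusted p = 0.621) and -0.06 (adjusted p = 0.535). In counts the libraries of the groups overlapped for both genes, while in TPM both were lower in Dor cKO in every library.

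Complex III moves electrons from ubiquinol to cytochrome c. Uqcr11 (chr10:80402997-80406830), a small nuclear subunit, stood at 59.8 and 64.3 CPM in Dor WT against 73.7 and 73.1 in Dor cKO. The groups were apart, the log2 change was 0.24 (SE 0.05, edgeR adjusted p = 0.00106), and the call stood without any 1 library. The change was 0.15 (adjusted p = 0.0375) in the fixed-length fit. The core protein Uqcrc1 stood at 160.3 and 166 against 173 and 175 CPM, a log2 change of 0.09 (SE 0.03, adjusted p = 0.0413) that was called in the fixed-length fit (0.09, adjusted p = 0.046) but neither with total count scaling nor without Dor WT 1, Dor cKO 1 or Dor cKO 2. The other core protein, Uqcrc2, lay on the other side of 0, at 129 and 133 against 124 and 121 CPM (log2 change -0.09, adjusted p = 0.0839). The difference between the 2 core proteins was not tested. The abundant hinge protein Uqcrh (648 and 662 against 622 and 635 TPM) and Uqcr10 (542 and 566 against 544 and 524 TPM) were not called, at log2 changes in counts of 0.01 and 0.06.

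Complex IV reduces oxygen, and its nuclear subunits surround a mitochondrial core. The 3 ubiquitous subunits with the highest TPM were called higher. Cox4i1, the ubiquitous form of a subunit that binds ATP, stood at 352 and 348 CPM in Dor WT against 383 and 368 in Dor cKO, a log2 change of 0.10 (SE 0.03, edgeR adjusted p = 0.00175). Cox8a stood at 169 and 169 against 180.4 and 183 CPM (0.11, adjusted p = 0.0127). Cox6a1 stood at 169.8 and 176 against 187 and 186 CPM (0.11, adjusted p = 0.0119). The groups did not overlap for any of the 3, as for 60.8% of all genes. The Cox4i1 call was lost without Dor cKO 1, that of Cox8a without Dor cKO 2, and that of Cox6a1 without Dor WT 1, Dor cKO 1 or Dor cKO 2. In the fixed-length fit Cox4i1 was called at 0.08 (adjusted p = 0.0212), and Cox8a (0.05) and Cox6a1 (0.06) were not.

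Cox6b2 (chr7:4751792-4753094), the isoform of Cox6b1 known from testis, had the greatest rise of the nuclear members called. It stood at 17.7 and 14.0 CPM in Dor WT against 22.2 and 22.9 in Dor cKO. Both Dor cKO libraries were above both Dor WT libraries, and the log2 change was 0.52 (SE 0.11, edgeR adjusted p = 0.000452). The change ranged from 0.35 to 0.68 when each library was left out, and the call stood each time. Its fixed-length value was 0.45 (adjusted p = 0.00191). Cox6a2, the heart and muscle isoform, had the lowest value of all members at a log2 change of -0.95 (SE 0.56, adjusted p = 0.234), from 1.15 and 0.736 against 0.523 and 0.433 CPM.

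Complex V is a rotary ATP synthase with a catalytic head, a central stalk, a peripheral stalk and a ring of c subunits in the membrane. Atp5g3 (chr2:73908447-73911326), of 3 genes that encode the same mature c subunit, stood at 197 and 197 CPM in Dor WT against 218 and 223 in Dor cKO. Its log2 change was 0.16 (SE 0.03, edgeR adjusted p = 0.000123), and 0.13 (adjusted p = 0.00144) in the fixed-length fit. Atp5j (chr16:84827866-84835625), the coupling factor of the peripheral stalk, stood at 97.5 and 92.4 against 107 and 109.8 CPM. It changed by 0.19 (SE 0.04, adjusted p = 0.00121), and by 0.17 (adjusted p = 0.00448) in the fixed-length fit. The calls of both stood without any 1 library. Atp5d, the delta subunit of the central stalk, stood at 159 and 150 against 163 and 171 CPM (0.11, SE 0.04, adjusted p = 0.0176) and was called in the fixed-length fit (0.10, adjusted p = 0.0454) but neither with total count scaling nor without Dor WT 2 or Dor cKO 2. Atp5h of the peripheral stalk, at 136 and 139.5 against 129 and 135 CPM (-0.06, adjusted p = 0.247), was called lower in the fixed-length fit (-0.10, adjusted p = 0.0404).

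Atp5b, the catalytic beta subunit, was the most abundant nuclear member per length and turned direction with the unit. In counts it stood at 788 and 818 CPM in Dor WT against 822 and 841 in Dor cKO, a log2 change of 0.05 (SE 0.02, adjusted p = 0.0659). In TPM it stood at 1635 and 1618 against 1400 and 1493, so both Dor cKO libraries were lower. Its deposited effective length was 717 bases in Dor WT and 829 in Dor cKO as group means, a log2 ratio of 0.21. The fixed-length ratio, which holds the fragment length alone, was 0.03, and the rest of the deposited difference lies in its isoform estimates. With the deposited values as the offset the change was -0.15 (adjusted p = 0.0244), and in the fixed-length fit it was 0.04 (adjusted p = 0.183). Its head partner, the alpha subunit Atp5a1, stood at 759 and 724 against 756 and 768 CPM (0.04, adjusted p = 0.159), and Atp5e of the central stalk at 986 and 967 against 927 and 931 TPM (0.05 in counts, adjusted p = 0.387).

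**Figure D2:**
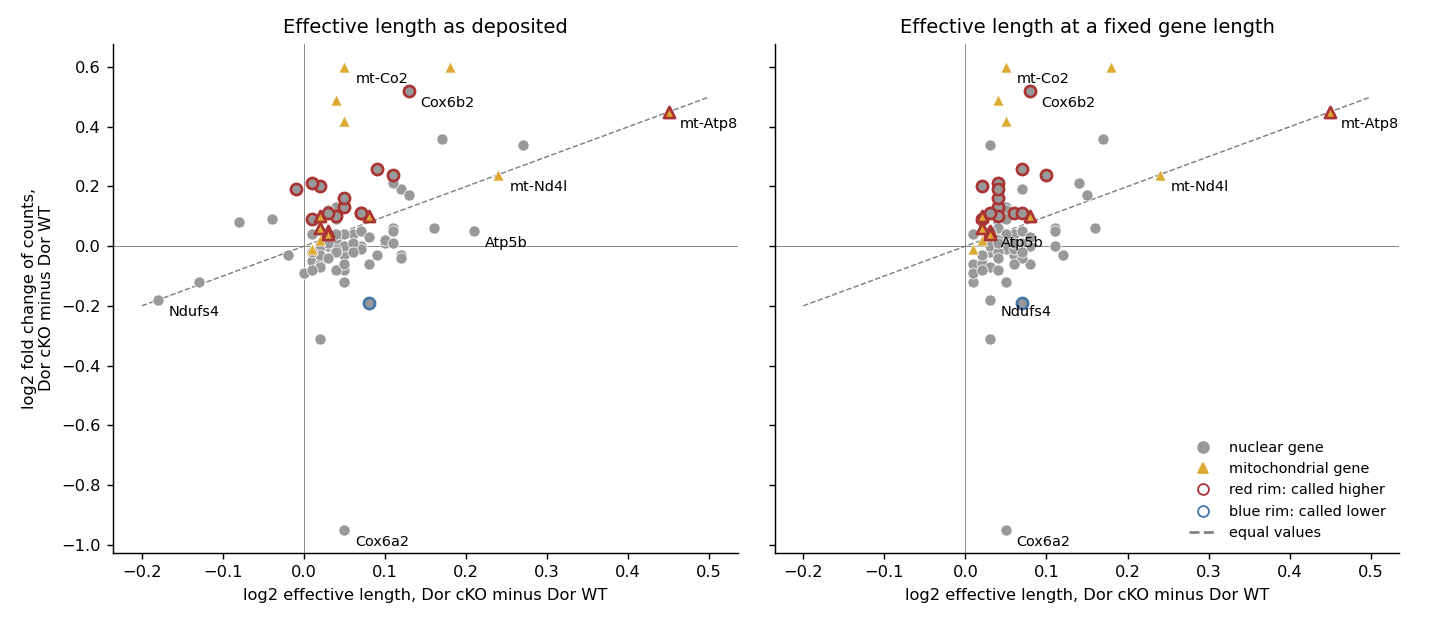
Log2 fold change of counts against the log2 ratio of effective length, both Dor cKO minus Dor WT, for the 79 nuclear (circles) and 13 mitochondrial (triangles) genes tested, with effective length as deposited (left) and at a fixed gene length (right). On the dashed line both values are equal; mt-Atp8 lies on it at 0.45 in both panels, while Atp5b moves from 0.21 to 0.03 and Ndufs4 from -0.18 to 0.03 on the horizontal axis.

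In the mitochondrial genome, 6 of 13 genes were called higher and 0 lower, with a median log2 change of 0.103, beside 14.3% and 13.4% of all genes. At an unadjusted p under 0.05 the counts were 8 and 0 (18.4% and 18.1% of all genes), and DESeq2 called 7 and 0 (10.2% and 9.14%). These genes share precursors, so the count is not 13 independent results. The complex III gene mt-Cytb stood at 5594 and 5599 CPM in Dor WT against 6012 and 5954 in Dor cKO (0.10, SE 0.01, edgeR adjusted p = 1.14e-08). Catalytic subunit mt-Co1 of complex IV, the most abundant member by CPM, stood at 18336 and 18286 against 19212 and 19045 (0.06, SE 0.01, adjusted p = 8.2e-08). For both the groups were far apart beside the spread within them, and both were called in the fixed-length fit, at 0.09 (adjusted p = 2.26e-08) and 0.06 (adjusted p = 3.61e-08). When the coefficient of variation between replicates was set at 0.1 in place of the estimated 0.03477, neither was called. Other mitochondrial genes, 5 in number, were called higher at that setting, beside 703 higher and 891 lower of all genes. These 5 are not all among the 6 called as deposited. Of the 65 named genes, 4 gained a call at that setting and 39 lost one.

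Of the complex I genes, mt-Nd1 stood at 4573 and 4567 against 4763 and 4719 CPM (0.05, adjusted p = 0.000318), mt-Nd2 at 2257 and 2221 against 2315 and 2292 CPM (0.04, adjusted p = 0.0229) and mt-Nd6 at 816 and 802 against 866 and 872 CPM (0.10, adjusted p = 4.74e-05). These rises were small and the groups did not overlap. In the fixed-length fit mt-Nd1 was called at 0.04 (adjusted p = 0.00507), and mt-Nd2 (0.03) and mt-Nd6 (0.04) were not. The mt-Nd2 call was also lost without Dor WT 2, Dor cKO 1 or Dor cKO 2. The gene mt-Nd6 is read from the other strand and overlaps mt-Nd5 at one end, and the sources used here do not say whether counting used the strand. The longest gene, mt-Nd5, stood at 4918 and 4894 against 4896 and 4878 CPM and was not called (-0.01, adjusted p = 0.763).

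The rise of mt-Atp8 matched the change in its effective length. This short gene of complex V (chrM:7766-7969, 204 bases, overlapping mt-Atp6) stood at 249 and 241 CPM in Dor WT against 337 and 330.1 in Dor cKO, a log2 change of 0.45 (SE 0.03, edgeR adjusted p = 8.43e-14). Being shorter than a typical fragment, it had an effective length of 6.51 bases in Dor WT and 8.91 in Dor cKO as group means, a log2 ratio of 0.45. In TPM, which divides by that length, it stood at 54765 and 54493 against 54692 and 53249 and the groups overlapped. In the fixed-length fit the change was 0.01 (adjusted p = 0.881). The TPM values made this gene 41.1% to 43.3% of the TPM of the mitochondrial genome in a library, while its CPM exceeded only those of mt-Nd3 and mt-Nd4l.

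The genes below, 5 of the 7 with a chromosome 1 copy, had larger changes than the genes called higher, mt-Atp8 apart, and were not called. The complex IV subunit mt-Co2 stood at 625 and 709 CPM in Dor WT against 1042 and 986 in Dor cKO (0.60, SE 0.09, adjusted p = 0.0632). The complex I subunit mt-Nd3 stood at 48.8 and 58.6 against 70.4 and 93.6 CPM (0.60, SE 0.24, adjusted p = 0.249). The remaining values were 1286 and 1037 against 1563 and 1684 CPM for mt-Co3 (0.49, adjusted p = 0.195), 681 and 532 against 768 and 851 CPM for mt-Atp6 (0.42, adjusted p = 0.289), and 129 and 108 against 129.8 and 149 CPM for mt-Nd4l (0.24, adjusted p = 0.421). The groups did not overlap for any of the 5, nor for 12 of the 13 mitochondrial genes in all, as for 60.8% of all tested genes. Libraries of one group differed among themselves more for these 5 than for the genes above. DESeq2 called mt-Co2 (0.61, adjusted p = 1.09e-08) and mt-Co3 (0.48, adjusted p = 0.0201), and leaving out Dor WT 1 or Dor WT 2 made mt-Co2 a call at 0.52 and 0.70, as leaving out Dor cKO 1 or Dor cKO 2 did for mt-Nd3 at 0.79 and 0.38.

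The deposited counts of these genes are a part of reads shared with the copies printed above. Of the counts given to mt-Co2 and Gm28661 together, the mitochondrial gene received 9.34% and 10.3% in Dor WT against 15.2% and 13.8% in Dor cKO. For mt-Co3 and its copy the share was 26% and 19.3% against 27.9% and 30.1%, and for mt-Atp6 16.8% and 13% against 17.3% and 19.1%. The posterior SD that the authors deposited beside each count reached 19.5% of the count for mt-Co3 in Dor WT 2, against at most 1.97% for any tested nuclear member. Added to their copies, the pairs stood much closer between groups: mt-Co2 changed by 0.05 (SE 0.03, adjusted p = 0.456) and mt-Co3 by 0.12 (SE 0.06, adjusted p = 0.317). The sums of mt-Atp6 (0.12, SE 0.01, adjusted p = 1.71e-10), mt-Nd3 (0.12, SE 0.02, adjusted p = 0.000111) and mt-Nd4l (0.15, SE 0.02, adjusted p = 9.34e-07) were called higher, and mt-Nd4 was not (-0.01, adjusted p = 0.554).

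In the fixed-length fit, which includes the copies, the 13 genes lay between -0.08 and 0.09 with a median of 0.029. At an unadjusted p under 0.05, 6 of them were higher and 2 lower, beside 18.4% and 17.9% of all genes. By adjusted p edgeR called 4 higher and 1 lower, beside 14.5% and 13.4% of all genes. The rises were mt-Cytb, mt-Co1, mt-Nd1 and mt-Atp6 (0.09, SE 0.01, adjusted p = 1.2e-07). The fall was mt-Nd4l at -0.08 (SE 0.02, adjusted p = 0.00195), a short gene whose effective length ratio was 0.24 and whose sum with its copy was called higher without the offset, so its direction turned with the offset. For mt-Co2 the value was 0.01 (adjusted p = 0.869). With the deposited effective lengths, 3 were called higher and 0 lower, beside 6.53% and 6.03% of all genes. There mt-Nd1 (0.03) and mt-Nd4l (-0.09) were not called. With those but without the copies, mt-Co2 was called at 0.57 (adjusted p = 0.00266), so its value moved with how shared reads were assigned.

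**Figure D3:**
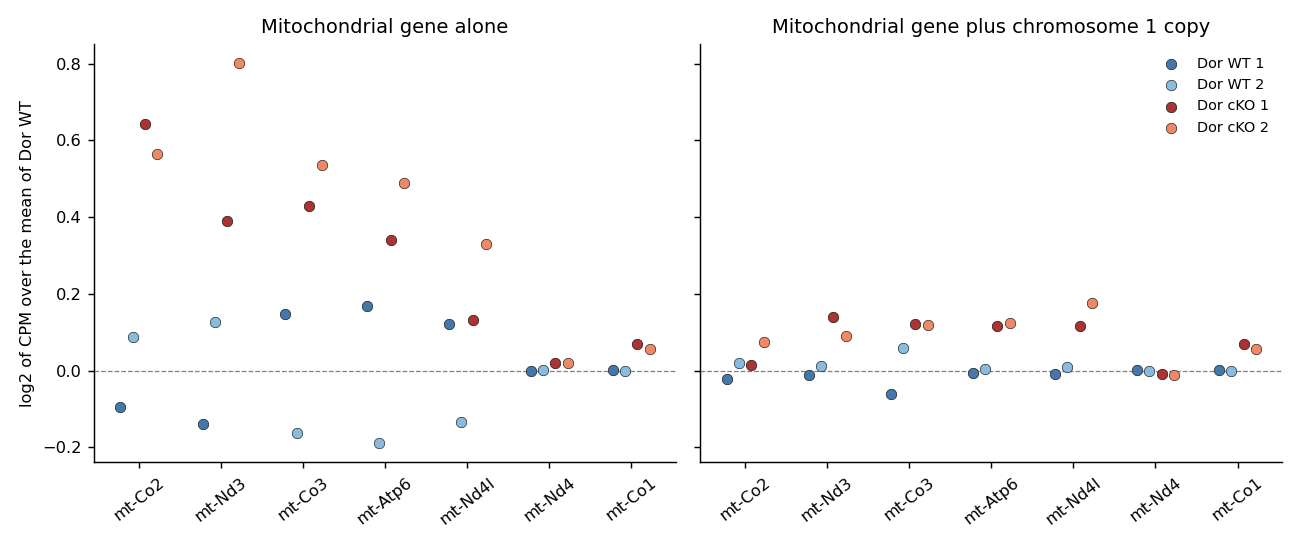
Log2 of CPM in each library over the mean of the 2 Dor WT libraries for the 7 mitochondrial genes with a chromosome 1 copy, alone (left) and added to the copy (right); each point is a library. Alone, mt-Co2 and mt-Nd3 each had a log2 change of 0.60 between groups; added to their copies they had 0.05 and 0.12, and mt-Nd4 and mt-Co1 lie close to 0 in both panels.

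Summed over members, the direction for the nuclear genes depended on the unit. TPM divides counts by the deposited effective length, isoform estimates included. Their TPM summed to 24356 and 24269 in Dor WT against 23655 and 23638 in Dor cKO, a change of -2.74%, whereas their CPM summed to 8018 and 8002 against 8178 and 8198, higher by 2.22%. The groups did not overlap in either unit, and the exact two-sided permutation test over 4 libraries gave p = 0.333, the smallest this design allows. By complex the TPM sums were 7169 and 7277 against 7023 and 6986 for complex I, 2667 and 2749 against 2739 and 2680 for complex III, 5927 and 5829 against 5797 and 5771 for complex IV, and 8593 and 8413 against 8096 and 8202 for complex V. The groups overlapped in complex III and in none of the others. In CPM all 4 sums were higher in Dor cKO, by 1.12%, 2.98%, 3.61% and 2.18% in the same order.

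The mitochondrial genes summed to 127452 and 125784 TPM in Dor WT against 130270 and 129567 in Dor cKO, higher by 2.61%, and to 72687 and 71291 against 75578 and 76319 without mt-Atp8, higher by 5.5%. These TPM sums leave out the chromosome 1 copies, so they carry the assignment of shared reads. The largest gains in mean TPM were those of mt-Co3 (3210 to 4339), mt-Co2 (2277 to 3325) and mt-Atp6 (2087 to 2673). Mean TPM fell for mt-Nd4, mt-Nd4l, mt-Nd5 and mt-Atp8. In CPM, with the copies added, the sums were 59979 and 60505 against 62928 and 62902, higher by 4.44%. The copies alone summed to 14532 and 15512 against 14931 and 15026 CPM, where the groups overlapped. Single copies moved in both directions in the edgeR fit as deposited. That of mt-Nd4 changed by -0.60 (SE 0.03, adjusted p = 2.75e-16) and that of mt-Co1 by 0.55 (SE 0.11, adjusted p = 0.000209). The copy of mt-Nd4l changed by 0.13 (SE 0.02, adjusted p = 4.9e-05), and the rest were not called. The ratio of mitochondrial to nuclear TPM was 5.23 and 5.18 in Dor WT against 5.51 and 5.48 in Dor cKO. It was 2.98 and 2.94 against 3.20 and 3.23 without mt-Atp8, and in CPM with the copies 7.48 and 7.56 against 7.69 and 7.67. The ratio was higher in both Dor cKO libraries in each of these 3 forms (exact permutation p = 0.333 each), by 5.5%, 8.47% and 2.17%. The TPM forms leave out the copies, and the CPM form does not divide by effective length.

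**Figure D4:**
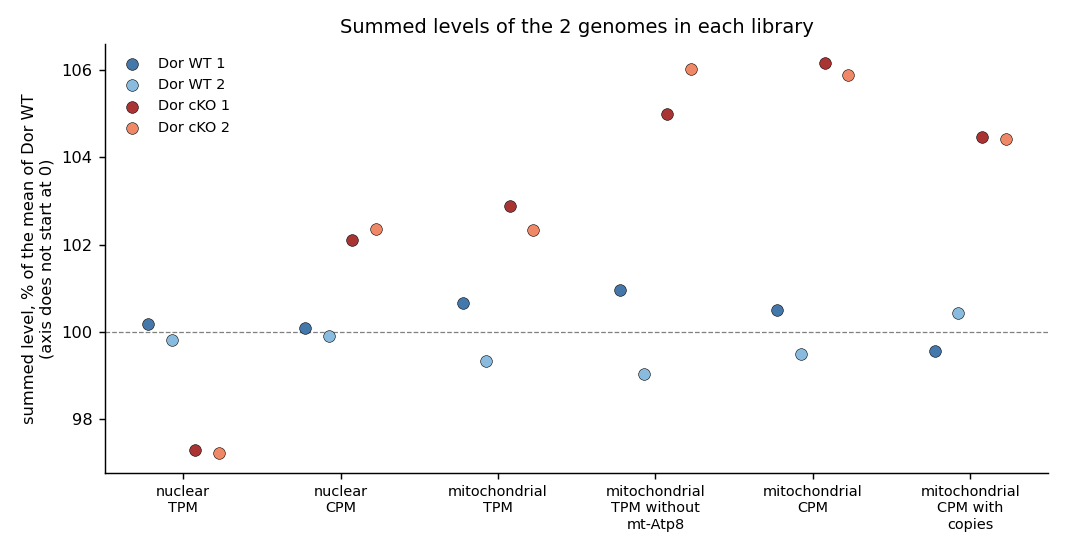
Summed level of the nuclear and of the mitochondrial members in each library, as a percent of the mean of the 2 Dor WT libraries; points are libraries and the axis does not start at 0. The nuclear sum of Dor cKO is below Dor WT in TPM and above it in CPM, and the mitochondrial sum is above it in all 4 forms.

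Several subunits have isoforms made from different genes, and shares were computed from TPM. Cox6b2 made up 14.7% and 13.9% of the Cox6b1 and Cox6b2 total in Dor WT against 18.6% and 19.7% in Dor cKO, a mean difference of 4.8 percentage points. Cox7a1, the heart and muscle form, made up 15.4% and 15.5% of its pair with Cox7a2 against 17.0% and 19.0%. Neither Cox7a1 (4.54 and 4.51 against 4.81 and 5.68 CPM, adjusted p = 0.5) nor Cox7a2 (70.4 and 68.5 against 63.9 and 64.2 CPM, adjusted p = 0.117) was called as deposited, and Cox7a2 was called lower in the fixed-length fit (-0.15, adjusted p = 0.0316). Skeletal muscle markers summed to 7.53 and 8.65 against 9.85 and 9.53 CPM, with 0 of 5 tested called. Within the c-ring genes, Atp5g3 held 46.0% and 47.6% in Dor WT against 51.0% and 49.8% in Dor cKO, while Atp5g2 held 35.9% and 35% against 32.3% and 32.4%, and the groups did not overlap for either. Atp5g2 was called in the fixed-length fit (-0.11, adjusted p = 0.0374) and not as deposited. Atp5g1 held 18.1% and 17.4% against 16.7% and 17.8%, which overlapped, while its shares of CPM, 19.9% and 20.2% against 19.0% and 19.2%, did not.

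The isoforms of low level gave little. Cox6a2 held 0.5% and 0.309% of its pair in Dor WT against 0.209% and 0.175% in Dor cKO, at counts near the limit of testing. Shares of Cox4i2, the lung form (0.403% and 0.284% against 0.355% and 0.265%), of Cox8b, a heart and muscle form (0.0% and 0.899% against 0.408% and 0.676%), and of Ndufa4l2, a form induced by low oxygen (1.71% and 1.87% against 1.84% and 2.13%), overlapped between groups in TPM. In CPM those of Ndufa4l2 did not (2.79% and 2.68% against 3.41% and 3.61%). Over the 9 shares no exact permutation test could go below p = 0.333 with 2 libraries a group.

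**Figure D5:**
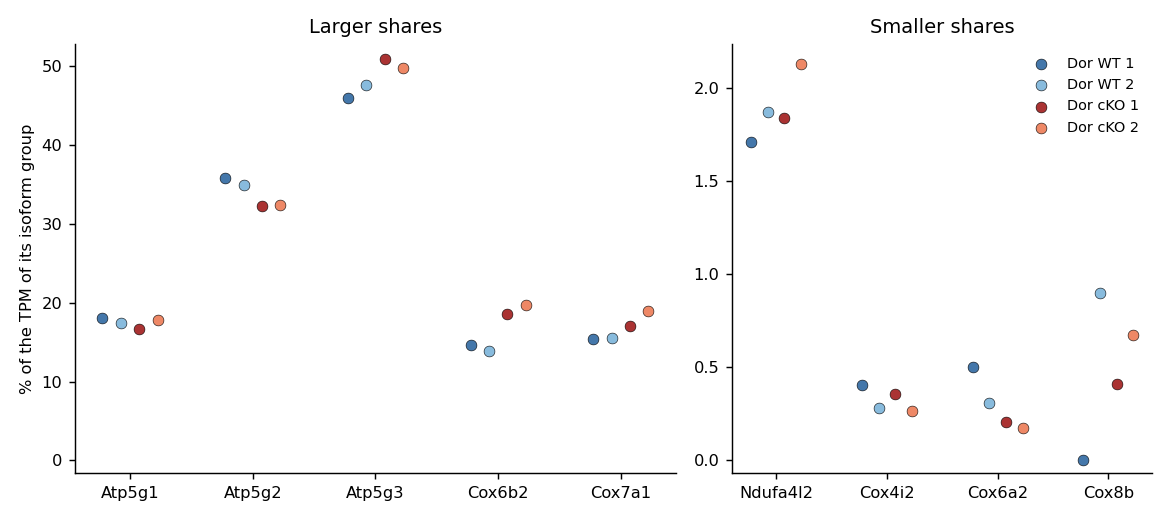
Share of each isoform in the TPM of its isoform group, in percent, in each library (points), for the larger shares (left) and the shares under 3% (right). Cox6b2, Cox7a1 and Atp5g3 lie higher and Atp5g2 and Cox6a2 lower in both Dor cKO libraries than in both Dor WT libraries.

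The nuclear genes of these complexes are known targets of NRF1, ETS factors (GABP) and YY1, so their promoter letters were read from RefSeq windows of GRCm38.p6 that run from 250 bases before to 50 bases after a start. Windows matched 65 tested nuclear members by symbol. The letters GCGCATGC (NRF1) stood on either strand in 13.8% of these genes against 5.47% of 11729 tested protein-coding genes, CCGGAAG (ETS) in 21.5% against 17.8%, and AAGATGGC (YY1) in 15.4% against 4.68%. At least 1 of the 3 stood in 43.1% against 25.5%. It was present in 7 of the 12 members with a window that were called higher and in 21 of the other 53. A match is a description of letters, not of a bound site. The 250 bases before the start are shown for Cox6a1, called higher (chr5:115348959-115349208, minus strand), and for Ndufa11, not called (chr17:56717512-56717761, plus strand; 53.7 and 56.4 against 53.0 and 54.8 CPM), with matches in capitals. In both, the NRF1 letters overlap their own reverse complement, so that run counts on each strand, and Cox6a1 also holds 1 ETS match on the reverse strand.
Cox6a1: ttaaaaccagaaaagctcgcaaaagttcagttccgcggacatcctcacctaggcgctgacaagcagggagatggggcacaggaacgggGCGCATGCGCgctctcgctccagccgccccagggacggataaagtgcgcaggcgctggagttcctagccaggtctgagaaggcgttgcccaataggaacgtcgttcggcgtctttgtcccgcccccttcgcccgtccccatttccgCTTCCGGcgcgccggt
Ndufa11: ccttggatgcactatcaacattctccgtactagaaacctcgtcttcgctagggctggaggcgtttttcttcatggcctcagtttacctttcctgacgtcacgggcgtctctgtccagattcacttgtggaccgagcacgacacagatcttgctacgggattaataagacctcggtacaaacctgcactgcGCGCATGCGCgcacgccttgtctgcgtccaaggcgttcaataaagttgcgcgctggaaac

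Genes around the members were counted in the same edgeR fit as deposited, where 14.3% of all genes rose and 13.4% fell (DESeq2 10.2% and 9.14%). Of 6 genes of complex II and the electron carriers, 3 rose and 0 fell (median 0.10; 3 and 1 at an unadjusted p under 0.05, DESeq2 2 and 0). They were Cyc1, the cytochrome c1 of complex III, whose symbol the member rule leaves out (83.1 and 80.6 against 93.5 and 92.1 CPM, 0.18), Sdha, the flavoprotein of complex II (255 and 254 against 284 and 281 CPM, 0.15), and Sdhd, its membrane anchor (95.6 and 98.0 against 110.1 and 102 CPM, 0.13). All 3 were called in the fixed-length fit, at 0.18, 0.16 and 0.12, and the Sdhd call was lost without Dor WT 1 or Dor cKO 1. With the deposited effective lengths, edgeR called 4 of the 22 genes named around the members, Nfe2l2, Mrps7, Ckb and Ucp2. Of 15 complex I assembly factors, 0 rose and 0 fell (median -0.03; 1 and 2 at an unadjusted p under 0.05, DESeq2 0 and 0). The most abundant of them, Acad9, stood at 31.5 and 30.5 against 32.3 and 28.4 CPM.

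Of 34 assembly factors of the other complexes, 2 rose and 1 fell (median 0.07; 3 and 1 at an unadjusted p under 0.05, DESeq2 1 and 0). Higd2a, a complex IV assembly factor, stood at 48.4 and 48.3 against 56.9 and 57.2 CPM (0.24, adjusted p = 0.00294; 0.20 in the fixed-length fit, adjusted p = 0.0122). Uqcc3, a complex III assembly factor, stood at 15.8 and 14.4 against 17.7 and 19.3 CPM (0.30, adjusted p = 0.0405) and was called neither without Dor WT 2, Dor cKO 1 or Dor cKO 2 nor in the fixed-length fit (0.28, adjusted p = 0.06). Atpaf1, which assembles the head of complex V, stood at 24.9 and 25.2 against 19.5 and 20.8 CPM (-0.31, adjusted p = 0.0103) and was not called without Dor cKO 1. It was -0.31 in the fixed-length fit (adjusted p = 0.0106), and -0.08 (adjusted p = 0.738) with its deposited effective length, which fell by 0.23 on the log2 scale against the direction that shorter fragments give. Of 10 regulators, 2 rose and 0 fell (median 0.08; at an unadjusted p under 0.05, 2 and 1; DESeq2 1 and 0). These were Nfe2l2, the oxidative stress factor (95.3 and 92.4 against 112 and 114 CPM, 0.27, and 0.27 in the fixed-length fit, adjusted p = 1.01e-05), and the coactivator Ppargc1b (4.43 and 4.69 against 6.04 and 6.98 CPM, 0.51), whose call was lost when any 1 library was left out.

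Of 20 genes of mitochondrial DNA upkeep and transcription, 0 rose and 2 fell (median -0.05; 0 and 2 at an unadjusted p under 0.05, DESeq2 0 and 0). Tfam, which packages and transcribes mitochondrial DNA, stood at 32.6 and 35.7 CPM in Dor WT against 30.7 and 28.1 in Dor cKO (-0.22, adjusted p = 0.04) and was not called without Dor WT 2 or Dor cKO 2. It was called at the same -0.22 (adjusted p = 0.0401) in the fixed-length fit. Trmt10c, a subunit of mitochondrial RNase P, stood at 13.1 and 11.4 against 9.56 and 8.95 CPM (-0.39, adjusted p = 0.0322; -0.39 in the fixed-length fit, adjusted p = 0.0353) and was not called without Dor WT 1, Dor cKO 1 or Dor cKO 2. Of 78 genes of the mitochondrial ribosome, 1 rose and 5 fell (1.28% and 6.41%, median -0.06), beside 14.3% and 13.4% of all genes. Mrps7 stood at 56.6 and 58.0 against 44.8 and 47.9 CPM (-0.31, and -0.31 in the fixed-length fit, adjusted p = 0.000281). Mrps6 stood at 23.5 and 23.8 against 29.2 and 29.2 CPM (0.30, and 0.28 in the fixed-length fit, adjusted p = 0.0105). Mrpl47 stood at 15.6 and 14.5 against 12.1 and 11.6 CPM (-0.34, and -0.34 in the fixed-length fit, adjusted p = 0.0364) and was not called without Dor WT 1, Dor cKO 1 or Dor cKO 2. With its deposited effective length, whose log2 ratio was -0.36, the change of Mrpl47 was -0.03 (adjusted p = 0.938).

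Of 12 carriers, channels and energy transfer genes, 4 rose and 2 fell (median -0.03; DESeq2 4 and 1). Ckb, the brain creatine kinase, stood at 996 and 994 against 1238 and 1236 CPM (0.31, and 0.31 in the fixed-length fit, adjusted p = 1.22e-15), and the carrier Ucp2 at 159 and 167 against 204 and 209.9 CPM (0.34, and 0.33 in the fixed-length fit, adjusted p = 4.62e-09). The carrier Slc25a14 stood at 8.40 and 7.04 against 5.0 and 5.15 CPM (-0.60, adjusted p = 0.0114; -0.60 in the fixed-length fit, adjusted p = 0.0107) and was not called without Dor WT 1, Dor cKO 1 or Dor cKO 2. Of 11 fusion, fission and turnover genes, 2 rose and 2 fell (median -0.09; 2 and 4 at an unadjusted p under 0.05, DESeq2 0 and 0, with 2 and 1 unadjusted): the fusion protein Mfn2 stood at 101 and 105 against 110.3 and 115 CPM (0.13), and the fission factors Fis1 (133 and 145 against 126 and 129 CPM, -0.13) and Mff (118 and 121 against 112 and 109.8 CPM, -0.11) fell. These 3 calls stood in the fixed-length fit, and each was lost in at least 2 of the 4 fits that leave out 1 library. Of 8 antioxidant enzymes, 2 rose and 0 fell (median 0.07; DESeq2 0 and 0, and 2 and 0 at an unadjusted p under 0.05), namely Prdx5 (97.1 and 94.8 against 108 and 107 CPM, 0.16) and Sod1 (112 and 120.1 against 126 and 131 CPM, 0.15), and in the fixed-length fit Prdx5 was called at 0.16 (adjusted p = 0.00568) and Sod1 was not (0.11, adjusted p = 0.0549).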

How the data were processed

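RNA-seq tables of 4 optic nerve libraries were used. Tools in the submitters' processing notes are RSEM 1.3.1, STAR 2.7.9a and Trimmomatic 0.36, with the build GRCm38; annotation release and strand setting: not given in the sources used here. Each deposited table holds, per the file headers, a gene's expected count (an estimate that divides reads among the genes they fit) and TPM, beside length, effective length and posterior SD of the count. The authors' TPM sums to a fixed total in each library.

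Symbols and positions came from GENCODE M21 (55141 of 55401 identifiers matched without version). Counts were rounded, filtered with filterByExpr of edgeR 4.0.16 (minimum count 10, minimum total 15), scaled by TMM (factors 0.993 to 1.0072) and compared by the quasi-likelihood test over 16751 genes with Benjamini-Hochberg adjustment, calls at an adjusted p under 0.05. Changes are log2, Dor cKO minus Dor WT, and n is 2 libraries a group. The steps were run on counts simulated with the spread estimated from these libraries, which cannot show whether that spread is right. Alternatives used DESeq2 1.42.0, limma 3.58.1 on log2(TPM + 1) and log2(TPM + 0.1), other scalings and filters, a trend on length and GC removed with mgcv 1.9.3, a coefficient of variation of 0.1, a replicate block and each library left out. Fits with copies summed, with the deposited effective length as an offset, with both, with copies and the effective length of a gene's mean length (read by interpolation from genes whose length differed by less than 0.005 bases between libraries), and sums without mt-Atp8 or with copies were chosen after seeing the data.

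Named genes were members called, the mitochondrial genes, the 2 nuclear members of each complex with the highest mean TPM, isoform pairs, Trp53inp2, and up to 3 called genes of each list with the greatest change (or its most abundant gene). Ndufv1, Ndufs1, Ndufa8, Ndufb7, Ndufa11, Uqcrc2, Atp5a1, Ndufs4 and Atp5h were named outside that rule, after their values were seen. Members and lists were chosen with earlier results of these data known.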

Additional observations from a re-analysis of the deposited data

How the results depend on the processing

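With 2 libraries a group, a fit without 1 library assumes that the lone library varies like the other group. Same-numbered libraries shared no deviation (correlation -0.015 over genes), so they share only a number; a replicate block gave 15 nuclear rises and 1 fall, 7 mitochondrial rises, and 2561 and 2409 genes in all, and made mt-Nd3 (0.61) and Atp5b (0.05) calls. Of 65 named genes in 19 settings (1231 values), 903 kept their side of the threshold, 288 lost a call, 31 gained 1 and 9 changed sign with a call; of 396 values never called, 50 changed sign. Sign changes with a call were mt-Atp8 (-0.02 with limma at either pseudocount, -0.04 with length and GC trends removed), mt-Nd5 (0.11 with those trends removed), mt-Nd4l (-0.08 in the fixed-length fit) and Atp5b (-0.17 with limma at either pseudocount, -0.15 with deposited effective length, copies summed or not).

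Rises and falls over all genes numbered 1539 and 1383 with DESeq2, 666 and 722 with limma on log2(TPM + 1), 672 and 734 on log2(TPM + 0.1), 703 and 891 at a coefficient of variation of 0.1, 1094 and 1009 with deposited effective length, 1093 and 1009 with copies too, and 2431 and 2243 in the fixed-length fit; without each library they numbered 1782 to 2184 and 1670 to 2073. In the same order nuclear rises numbered 7, 0, 0, 1, 0, 0 and 10, and 4 with length and GC trends removed; without each library, 6 to 13. Nuclear falls numbered 6 with total count scaling, 0 with DESeq2, 4 and 4 with limma, 5 with length and GC trends removed, 5 in the fixed-length fit and 0 at the set coefficient of variation; without each library, 0 to 3. Mitochondrial rises numbered 3 with limma at either pseudocount, with deposited effective length and with copies too. They numbered 5 at the set coefficient of variation, not all rises as deposited, and 4 in the fixed-length fit, which also gave 1 fall.

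Settings for the medians are total count scaling, limma at pseudocounts 1 and 0.1, length and GC trends removed, deposited effective length, that with copies, and the fixed-length fit. The nuclear median was -0.012, -0.057, -0.058, -0.015, -0.036, -0.036 and -0.035, was 0.015 with no filter, and 0.017 to 0.026 without each library. The mitochondrial median was 0.083, 0.016, 0.016, 0.171, 0.035, 0.024 and 0.029. Complex I gave -0.023, -0.051, -0.051, -0.024, -0.031, -0.031 and -0.039 (without each library -0.004 to 0.018), complex IV 0.005, -0.046, -0.046, 0.004, -0.027, -0.026 and -0.004 (0.029 to 0.058) and complex V -0.014, -0.072, -0.073, -0.023, -0.053, -0.053 and -0.044 (0.006 to 0.030). From limma on, complex III gave -0.044, -0.044, 0.010, -0.026, -0.026 and -0.024 (0.023 to 0.089). On the log2 scale the nuclear sum changed by -0.04 in TPM, 0.032 in CPM and -0.034 without the top member of each complex. The mitochondrial sum changed by 0.037 in TPM, 0.084 in CPM, 0.077 without mt-Atp8 and 0.063 in CPM with copies, and the ratio by 0.077, 0.052, 0.117 and 0.031. In CPM the share of Cox7a1 differed by 1.44 percentage points and that of Ndufa4l2 by 0.77. The cause of these differences was not tested beyond what each setting changes. Depth was 17263820 counts or more a library, so counting error is small for most members and large for Cox8b, Cox4i2 and Cox6a2.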
